A study of Mus musculus with 8 samples.

Results

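The genes of the cytosolic ribosome were examined in AML12, a mouse hepatocyte line derived from mice that carry a human TGF-alpha transgene. Members were all genes whose symbol begins with Rpl or Rps followed by a number, together with Rplp0, Rplp1, Rplp2 and Rpsa, without the S6 kinases and without symbols that hold a hyphen, and 94 of the 55401 genes in the files met this rule. In the treated group, 4 dishes were kept for 1 h under a pulsed extremely low frequency weak magnetic field (ELF-WMF) with a peak of 100 mG, 4 ms pulses and a frequency that stepped from 1 to 8 Hz. The 4 control dishes held the same line, received no agent, and stood in another incubator of the same model with the stimulator off, so that incubator and exposure cannot be told apart. All 8 dishes came from 1 line and a single batch of cells, so p-values measure only the spread between dishes, and the files give TPM (transcript abundance per length, scaled to the same total in each dish) without read counts, so the depth behind a value is unknown. Each sample was taken as 1 dish, which the sample titles do not state.

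The cytosolic ribosome is built from a large subunit, which joins amino acids, and a small subunit, which reads the mRNA. Each subunit holds ribosomal RNA and 1 copy of most of its proteins, apart from the stalk proteins Rplp1 and Rplp2. Most of the mRNAs for these proteins begin with a C followed by a run of pyrimidines, the 5′ terminal oligopyrimidine (TOP) motif, through which mTORC1 and the RNA-binding protein LARP1 control their translation and stability. Ribosomal protein genes have also given rise to many retroposed copies, most of them pseudogenes, whose sequence is close to that of the parent gene.

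Of the 94 members, 77 encode proteins of the ribosome itself (core genes, 46 of the large and 31 of the small subunit), 10 were listed as paralogs of core genes, 6 others are annotated as pseudogenes (as is Rps4l among the paralogs), and 1, Rps19bp1, encodes a protein that binds Rps19 and is not a ribosomal protein. Of the listed paralogs, Rps23rg1 shared only 44.1% of aligned coding bases with Rps23. The longest identical stretch was 8 bases, so its place on that list is uncertain. The symbol rule leaves out some core genes, of which Fau and Rack1 are described separately. Genes had to reach 1 TPM in 4 or more dishes to be tested, which kept 88 members and 12122 genes in all. Of the members left untested, Rpl10l and Rpl39l were listed at 0 in all dishes, Rpl3l was listed at 0.06 TPM and Rps4l at 0.17 TPM in ELF-WMF dish 1 and at 0 elsewhere, and Rps23rg1 lay between 0.29 and 0.71 TPM. Rps12l1 was listed at 9.22 TPM in ELF-WMF dish 1 and at 0 in the other dishes.

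The line was checked against liver markers. Of 13 hepatocyte markers listed, 12 were matched by symbol and 10 had a mean of at least 1 TPM, with Hnf4a at 180.3 to 218 TPM, Ttr at 333 to 384 TPM and Alb at 46.1 to 58.2 TPM. Their summed level did not overlap between the groups, at 4842 to 5057 TPM in control and 5141 to 5385 TPM in ELF-WMF dishes. Most of this sum came from Krt8 (mean 2248 TPM in control and 2361 TPM in ELF-WMF dishes) and Krt18 (1905.5 and 2029 TPM). Of the 11 markers tested, 6 had a higher mean and 5 a lower one. The keratin genes Krt8 (log2 fold change 0.07) and Krt18 (0.09) were higher without overlap, Alb was lower with overlap (-0.15), and none of the 11 hepatocyte markers tested had an adjusted p below 0.05 (limma), 2 being higher and 1 lower at an unadjusted p below 0.05. Of 12 markers of bile duct, mesenchymal, endothelial and immune cells, Adgre1 and Cdh5 were at 0 in all dishes, and 3 had a mean of at least 1 TPM, Krt19 (1101 to 1244 TPM), Krt7 and Cd68. The summed level of this second list overlapped, at 1176 to 1262 TPM in control and 1189.5 to 1309.9 TPM in ELF-WMF dishes. The part of either list in the differences described here was not tested.

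Core genes were among the most abundant mRNAs. Their mean levels ran from 283 TPM (Rpl35a) to 4409 TPM (Rplp1), a 15.6-fold range, with a median of 1649 TPM (Rpl36). A mean of at least 1000 TPM was reached by 67 of the 77 core genes, and 47 of them were among the 100 most abundant of all genes. Control dishes were close to each other, with a median coefficient of variation of 2.81% over the core genes. It was smallest for Rplp0 at 0.687% and largest for Rps21 at 10.5%.

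**Figure D1:**
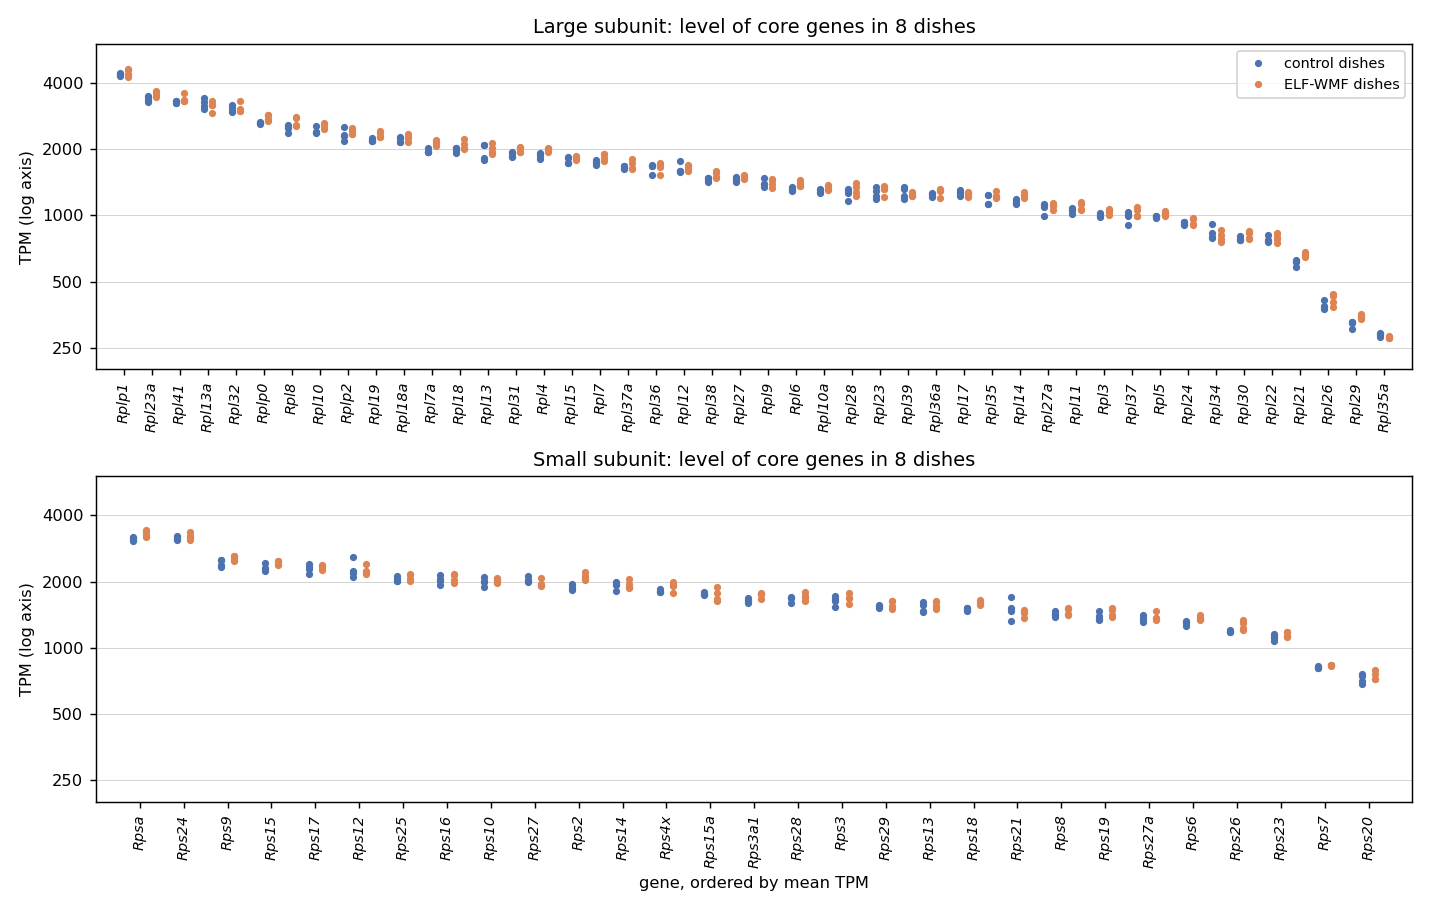
Level of the core genes drawn, in TPM on a log axis, with genes of the large subunit above and of the small subunit below, ordered by mean. Each point is 1 dish, control in blue and ELF-WMF in orange. For most genes the points of both groups lie above 1000 TPM, and the highest point is Rplp1 in ELF-WMF dish 1 at 4612 TPM.

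The most abundant members stand at different places on the ribosome. Rplp1 and Rplp2 are acidic proteins that, with Rplp0, form the stalk that recruits elongation factors. Rplp1 was listed at 4396, 4408, 4306 and 4339 TPM in control dishes and at 4612, 4567, 4265 and 4376 TPM in ELF-WMF dishes. These ranges overlapped, since ELF-WMF dish 3 was the lowest of all 8 dishes. Rpl23a, at the exit of the peptide tunnel, had 3390 ± 99.6 TPM in control and 3566 ± 94.3 TPM in ELF-WMF dishes (mean ± SD, n = 4). Rpl41, a very short basic peptide, had 3279.6 ± 36.7 and 3392 ± 135 TPM, Rpsa, also known as the laminin receptor, had 3125 ± 61.3 and 3299 ± 100.4 TPM, and Rps24, mutated in some patients with Diamond-Blackfan anaemia, had 3156 ± 59.3 and 3212 ± 102 TPM. None of these 5 had an adjusted p below 0.05 (limma with Benjamini-Hochberg adjustment), and the smallest of their adjusted p-values was that of Rpsa at 0.221.

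Together the 94 members held 13.2, 13.5, 12.9 and 13.2% of all TPM in control dishes and 14.1, 13.8, 13.3 and 13.4% in ELF-WMF dishes. The groups overlapped, because control dish 2 (13.519%) lay above ELF-WMF dishes 3 (13.277%) and 4 (13.375%), and the means were 13.2 ± 0.258% and 13.6 ± 0.373% (n = 4). In bulk RNA a share of this kind cannot tell more ribosomal protein mRNA from less of other RNA, and fewer cells of a type cannot be told apart from less RNA per cell. Mitochondrial genes held 8.69 to 9.42% of TPM in control dishes and 5.99 to 7.69% in ELF-WMF dishes, without overlap. When the share of the members was taken of TPM without mitochondrial genes, it was 14.5 ± 0.236% in control and 14.7 ± 0.331% in ELF-WMF dishes. The balance between the subunits was nearly constant, with the large subunit holding 57.6 to 57.9% of core TPM in control and 57.6 to 58.0% in ELF-WMF dishes.

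**Figure D2:**
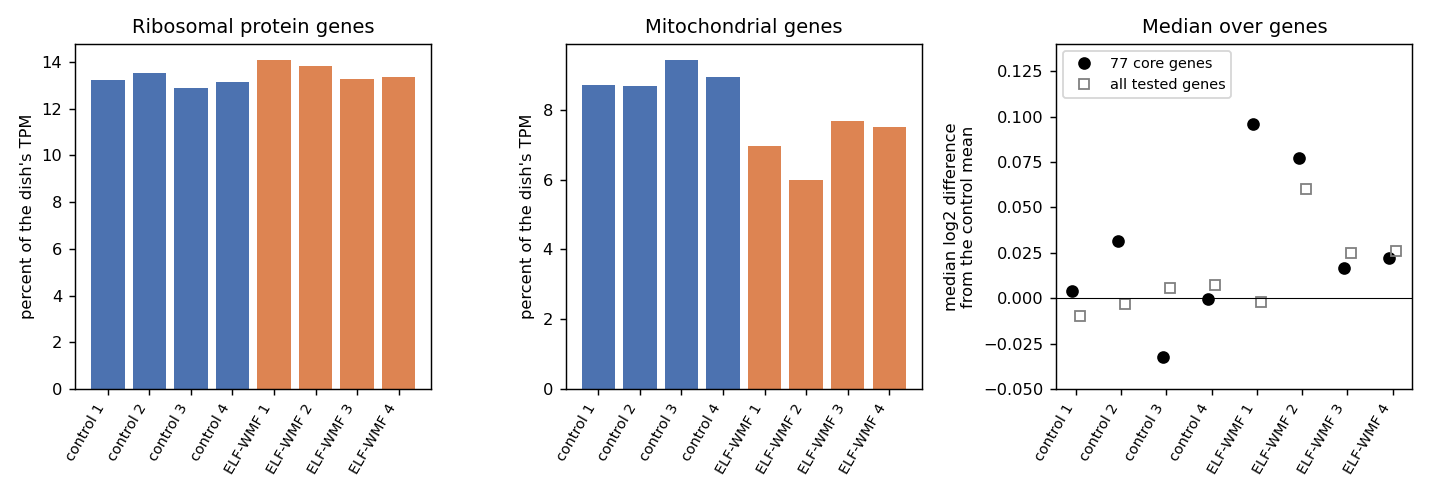
Left and middle, percent of each dish's TPM held by the 94 ribosomal protein genes and by mitochondrial genes, and right, each dish's median log2 difference from the control mean over the 77 core genes (filled circles) and over all tested genes (open squares). ELF-WMF dishes 1 and 2 have the largest share of ribosomal protein genes (14.1 and 13.8%) and the highest core medians (0.10 and 0.08), while the mitochondrial bars do not overlap between the groups.

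The question for each gene was whether its level differed between ELF-WMF and control dishes. No member had an adjusted p below 0.05 (limma on log2(TPM + 1), Benjamini-Hochberg over 12122 genes), the same as the 0% of all tested genes, and the smallest adjusted p among members was 0.122. At an unadjusted p below 0.05, 27 of 88 members were higher and 2 were lower, against 12% and 3.65% of all tested genes. The mean was higher under ELF-WMF for 76 of 88 members (86.4%), against 63.7% of all tested genes, and the median log2 fold change was 0.05 over members and 0.03 over all tested genes. The share over all genes depended on the filter. It was 53.8% (members 87%) for TPM above 0 in any dish and 68.6% (members 87.1%) for a mean of at least 5 TPM. The 4 dishes of one group lay entirely above those of the other for 18 members that were higher and 2 that were lower, against 8.01% and 1.86% of all tested genes.

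These differences were small and moved with the scaling. With median-of-ratios scaling 79.5% of members had a higher mean (52.8% of all genes), with upper-quartile scaling 65.9% (47% of all genes), and with mitochondrial genes left out of the total 69.3% (49.1% of all genes). The number of members with dishes that did not overlap on the higher side became 7, 6 and 7 in the same order. The number higher at an unadjusted p below 0.05 became 8, 7 and 13, and 16 when either ELF-WMF dish 1 or ELF-WMF dish 2 was left out. Over all tested genes, 1894 had an unadjusted p below 0.05 (limma) in either direction in the main fit. These became 1492, 1389 and 1368 under the scalings, and 1963 and 1496 without ELF-WMF dish 1 or 2. They count both directions, unlike the counts of higher members. In the main fit 1451 of the 1894 were higher, and that split is not given for the other fits. For non-overlap, no share of all genes stands beside the counts under the scalings.

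The dishes of the ELF-WMF group were not alike. ELF-WMF dish 1 was the highest of all 8 dishes for 44 of the 77 core genes and ELF-WMF dish 2 for 19, while control dish 3 was the lowest for 39. The median core gene stood 0.10 and 0.08 above the control mean on the log2 scale in ELF-WMF dishes 1 and 2, but 0.017 and 0.022 in ELF-WMF dishes 3 and 4. Control dish 2 reached 0.03. Over all tested genes the medians of ELF-WMF dishes 1 to 4 were -0.0022, 0.06, 0.025 and 0.026, so the core median lay above that of all genes in ELF-WMF dishes 1 and 2 and below it in ELF-WMF dishes 3 and 4.

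Counts were also taken by subunit, and the difference between the subunits was not tested. Of the 46 genes of the large subunit 41 had a higher mean under ELF-WMF (median log2 fold change 0.05), and of the 31 of the small subunit 27 did (median 0.04), or 89.1% and 87.1% against 63.7% of all tested genes. All 18 members with non-overlapping higher dishes were core genes, 11 of the large subunit (Rpl4, Rpl5, Rpl6, Rpl7a, Rpl14, Rpl19, Rpl21, Rpl29, Rpl31, Rpl38 and Rplp0) and 7 of the small subunit (among them Rps2, Rps6, Rps7, Rps18 and Rps26). By site on the ribosome, a higher mean was seen in 7 of 9 genes of the peptide exit tunnel (median 0.07), 7 of 7 at mRNA entry and decoding (median 0.08) and 6 of 6 at mRNA exit (median 0.06). These sets are small, 63.7% of all tested genes had a higher mean, and 7 of 9 (77.8%) is near that share.

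**Figure D3:**
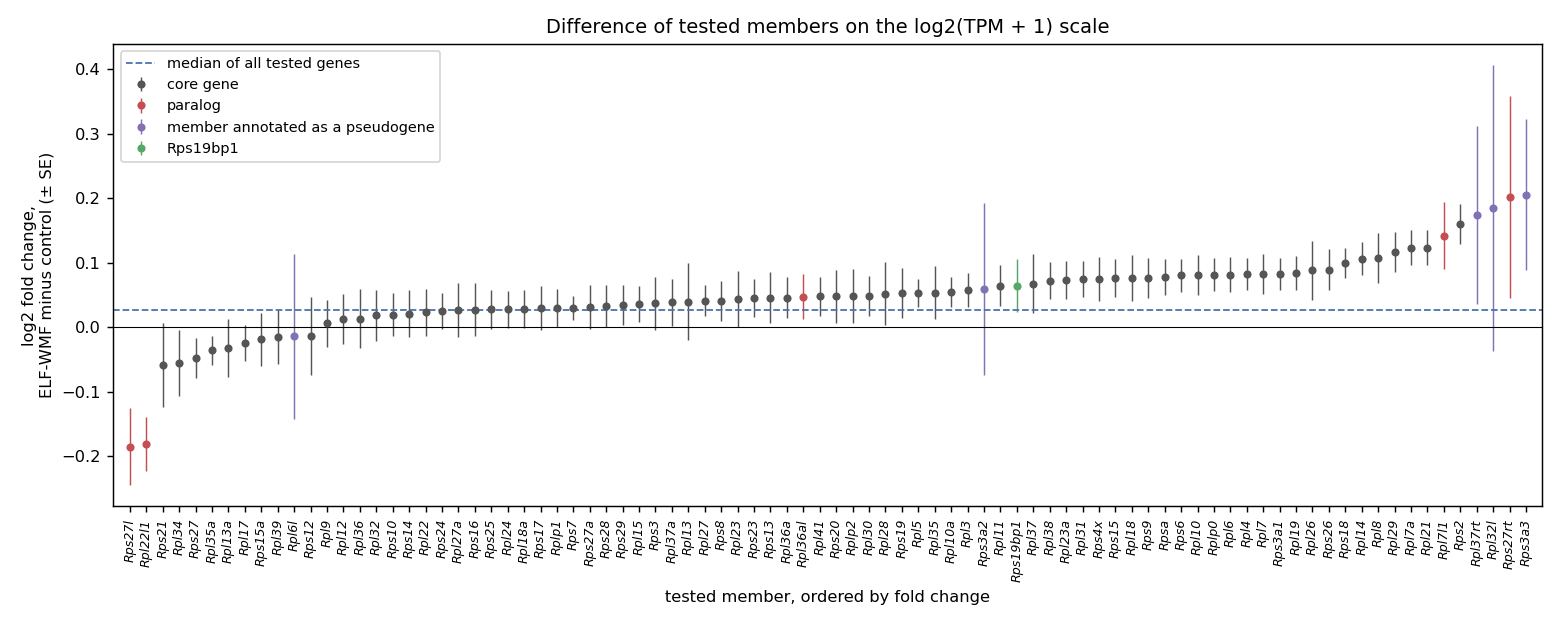
Log2 fold change (ELF-WMF minus control, on the log2(TPM + 1) scale) of the tested members drawn, each with its standard error, ordered by size and coloured by class, with the median of all tested genes (0.03) as a dashed line. Core genes lie in a narrow band from -0.06 to 0.16, while the paralogs Rps27l and Rpl22l1 stand apart at the lower end at -0.19 and -0.18. Members above the core band include Rps27rt (0.20, SE 0.16) and Rps3a3 (0.21, SE 0.12).

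Rps2, a protein at the mRNA entry channel of the small subunit, had the smallest p among members. It was listed at 1953, 1855, 1839 and 1895 TPM in control dishes and at 2211, 2109.7, 2036 and 2073 TPM in ELF-WMF dishes. All 4 ELF-WMF dishes lay above all 4 control dishes, with a log2 fold change of 0.16 (SE 0.03) and an adjusted p of 0.122 (limma with Benjamini-Hochberg adjustment). When the TPM of its near-identical copies was added, the log2 fold change was 0.09 and the dishes of the groups overlapped.

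Rpl7a, a protein of the large subunit, stood at 1945, 1932, 1943 and 2028 TPM in control and 2196, 2167, 2121 and 2067 TPM in ELF-WMF dishes. The groups did not overlap (log2 fold change 0.12, SE 0.03, limma adjusted p = 0.122), although control dish 4 was nearer to ELF-WMF dish 4 than to the other control dishes. Rpl21, also of the large subunit, stood at 622, 625, 584 and 612 TPM in control and 664, 680.3, 667 and 649.6 TPM in ELF-WMF dishes. The groups did not overlap (log2 fold change 0.12, SE 0.03, limma adjusted p = 0.122), and with the copies of Rpl21 added they still did not.

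Rps18, which lies in the head of the small subunit, had 1494 ± 24.5 TPM in control and 1601 ± 33.3 TPM in ELF-WMF dishes (n = 4, log2 fold change 0.10, SE 0.02). Its dishes did not overlap between the groups, with a limma adjusted p of 0.122. Rps6, the substrate of the S6 kinases downstream of mTORC1, was listed at 1304, 1320.1, 1254 and 1294 TPM in control and at 1415, 1367, 1352 and 1335 TPM in ELF-WMF dishes. Each ELF-WMF dish was above each control dish, with a log2 fold change of 0.08 (SE 0.03, limma adjusted p = 0.188).

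In the stalk, Rplp0, which anchors it to the large subunit, had non-overlapping dishes (2627 ± 18.04 against 2780.0 ± 83.8 TPM, n = 4, log2 fold change 0.08), while Rplp1 and Rplp2 overlapped (0.03 and 0.05). In the 5S particle, which also binds and restrains the p53 ligase Mdm2 when ribosome assembly fails, Rpl5 had 974, 981, 993 and 995 TPM in control and 1043, 996, 1024 and 1029.9 TPM in ELF-WMF dishes. The closest dishes, ELF-WMF dish 2 (995.68 TPM) and control dish 4 (994.89 TPM), were less than 1 TPM apart, and the log2 fold change was 0.05 (SE 0.02, limma adjusted p = 0.27). Rpl11, its partner, overlapped between groups (0.06, SE 0.03, limma adjusted p = 0.376). Rps27a, made as a fusion with ubiquitin, also overlapped (0.03, SE 0.03, limma adjusted p = 0.709).

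Among core genes with a lower mean, none passed even the unadjusted threshold. Rpl35a had 287 ± 5.63 TPM in control and 279.8 ± 2.96 TPM in ELF-WMF dishes (n = 4, log2 fold change -0.04, SE 0.02). Rps27 had 2038 ± 49.0 and 1972 ± 74.2 TPM (-0.05, SE 0.03), and Rpl34 had 833 ± 56.8 and 802 ± 41.8 TPM (-0.06, SE 0.05). The groups overlapped in all 3, with limma adjusted p-values of 0.487, 0.501 and 0.661.

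The paralogs gave the 2 members, of 88 tested, that were lower without overlap. That count is near the 1.86% of all tested genes that were lower without overlap. Rps27l, a paralog of Rps27 that p53 induces, was listed at 608, 732, 696 and 599 TPM in control dishes and at 583, 564, 576 and 586 TPM in ELF-WMF dishes. All ELF-WMF dishes lay below all control dishes, although control dish 4 was close to ELF-WMF dish 4. The log2 fold change was -0.19 (SE 0.06, limma adjusted p = 0.188), and the control dishes varied more (SD 65.6 TPM) than the ELF-WMF dishes (SD 9.80 TPM). Relative to Rps27 its level was 32.4 ± 3.60% in control and 29.3 ± 1.02% in ELF-WMF dishes (n = 4), and these percentages overlapped.

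Rpl22l1, the paralog of Rpl22, whose mRNA Rpl22 protein is known to repress in mouse cells, was listed at 314, 338, 344 and 313 TPM in control dishes and at 309, 279.9, 284 and 282 TPM in ELF-WMF dishes. ELF-WMF dish 1 was near the lower control dishes and the other 3 were well below them. The log2 fold change was -0.18 (SE 0.04, limma adjusted p = 0.122). Rpl22 itself had 776 ± 25.2 and 789 ± 36.3 TPM with overlap (0.02, SE 0.04, limma adjusted p = 0.819), so Rpl22l1 stood at 42.2 ± 2.32% of Rpl22 in control and 36.6 ± 1.27% in ELF-WMF dishes (n = 4). These percentages did not overlap, from 40.6 to 45.6% against 35.0 to 38.1%.

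**Figure D4:**
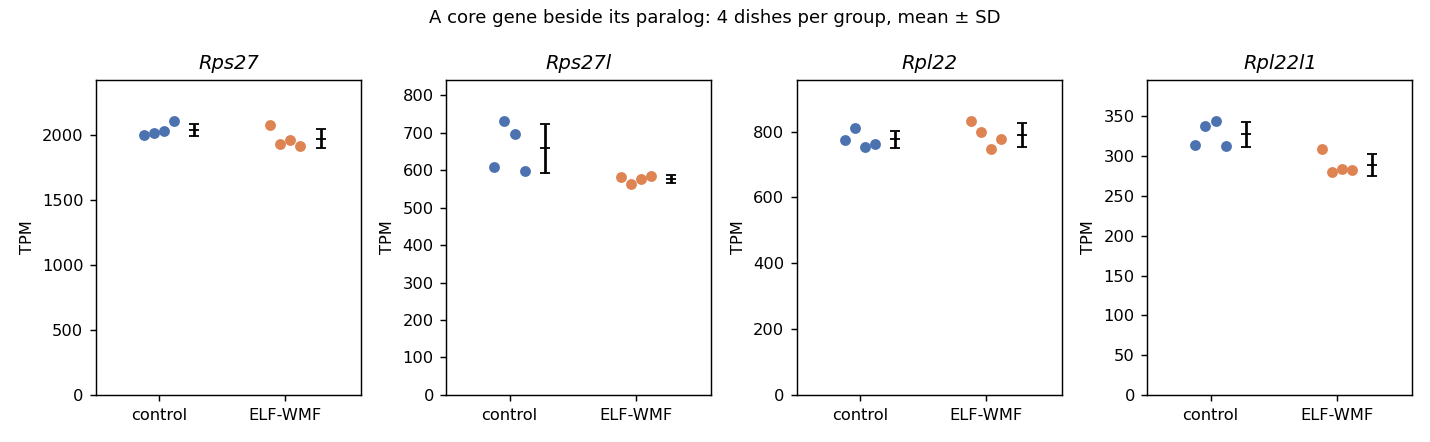
TPM of Rps27 and its paralog Rps27l, and of Rpl22 and its paralog Rpl22l1, in each of 4 control (blue) and 4 ELF-WMF (orange) dishes, with mean ± SD in black. The ELF-WMF points of Rps27l and Rpl22l1 all lie below the control points, while those of Rps27 and Rpl22 overlap.

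The coding sequences of Rps27 and Rps27l are shown because reads of similar genes can be shared between them. In GENCODE M21 (GRCm38), both have 252 bases, of which 192 (76.2%) are the same, and the capitals mark the bases that differ. The longest stretch without a difference is 11 bases, against a read length of 150 bases.
Rps27: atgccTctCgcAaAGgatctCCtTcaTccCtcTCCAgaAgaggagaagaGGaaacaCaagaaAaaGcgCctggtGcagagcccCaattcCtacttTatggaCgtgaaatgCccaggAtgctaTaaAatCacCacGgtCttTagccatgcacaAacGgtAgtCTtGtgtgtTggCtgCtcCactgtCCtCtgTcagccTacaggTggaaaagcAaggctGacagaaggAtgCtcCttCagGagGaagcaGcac
Rps27l: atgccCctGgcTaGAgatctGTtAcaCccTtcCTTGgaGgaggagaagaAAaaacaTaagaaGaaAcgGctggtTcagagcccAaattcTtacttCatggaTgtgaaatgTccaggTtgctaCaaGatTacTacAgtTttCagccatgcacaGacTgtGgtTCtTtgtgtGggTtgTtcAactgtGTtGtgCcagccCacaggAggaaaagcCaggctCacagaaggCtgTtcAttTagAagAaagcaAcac

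Rpl22 and Rpl22l1 share 66.9% of aligned coding bases, with a longest identical stretch of 26 bases. Rps27rt is different, since its coding sequence is the same as that of Rps27 over all 252 bases, so its level (40.1 to 69.7 TPM, log2 fold change 0.20, SE 0.16) is uncertain. Of the other tested paralogs, Rpl36al stayed at 35.2 ± 0.672% of Rpl36a in control and 35.2 ± 0.563% in ELF-WMF dishes (n = 4). Rpl7l1, which acts in the nucleolus, had 111 ± 5.87 and 122 ± 8.19 TPM (n = 4) with overlap, a log2 fold change of 0.14 (SE 0.05) and a limma adjusted p of 0.226. Rps19bp1 had 44.1 ± 1.79 and 46.1 ± 1.98 TPM (n = 4), also with overlap (0.06, SE 0.04, limma adjusted p = 0.501). Of the core partners of the remaining paralogs, Rpl3 (0.06), Rpl7 (0.08), Rpl10 (0.08), Rps4x (0.07), Rps23 (0.05), Rpl36a (0.05) and Rpl39 (-0.02) all overlapped between the groups.

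The promoter windows of both paralogs are shown because their log2 fold changes lay below those of all core genes. They span 120 bases before to 20 bases after the first RefSeq start (GRCm38.p6, plus strand), at chr9:66945966-66946105 for Rps27l and chr3:28805388-28805527 for Rpl22l1, with the motifs searched in capitals. Rps27l holds an SP1 motif (GGGCGG) before and an ETS motif (CCGGAAG) after its start, and Rpl22l1 holds the TATA box motif TATAAA on both strands, as 2 overlapping matches.
Rps27l: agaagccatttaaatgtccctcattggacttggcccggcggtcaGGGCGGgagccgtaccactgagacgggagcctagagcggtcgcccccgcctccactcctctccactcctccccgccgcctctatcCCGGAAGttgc
Rpl22l1: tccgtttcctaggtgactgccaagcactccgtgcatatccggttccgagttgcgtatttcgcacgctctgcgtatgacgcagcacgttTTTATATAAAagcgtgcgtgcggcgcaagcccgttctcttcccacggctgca

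Over the whole 300-base windows of RefSeq, 57 of 77 core genes had an entry and were set beside 27025 genes, with each motif searched on both strands. CCGGAAG was found in 24 of 57 core windows (42.1%), against 9.93% of all windows. The motif of ZBTB33 was found in 6 core windows (10.5%, against 0.525%), the YY1 motif AAGATGG, which holds an ATG and can overlap a start codon, in 15.8% (against 7.28%), and GGGCGG in 61.4% (against 38.2%). TATAAA (10.5%, against 15.7%) and the E-box CACGTG that MYC can bind (10.5%, against 8.09%) were at shares nearer to those of all windows. A match describes letters in a window, not a site that is bound.

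A start of C followed by at least 4 pyrimidines at the RefSeq start base was found in 13 of 57 core genes (22.8%), against 3.01% of all genes. A C with at least 7 pyrimidines beginning within 25 bases of the start was found in 57.9%, against 19.2%. The first 24 bases of 5 core genes are shown, with the pyrimidine run in capitals, because they include genes with higher (Rps18, Rps6, Rpl14) and lower (Rps27, Rpl35a) means under ELF-WMF. The runs of these genes are 7 to 9 bases long, except for Rpl14 with 6.
Rps18: CTCTCTTCCacaggaggcctacac
Rps6: CTCTTTTTCgtgacgcctcccagg
Rpl14: CTTCTCgctgagcgccgccaacat
Rps27: CCTTTCCggcggtgacgacctccc
Rpl35a: CTCTTTCCgccatcttggcgcctg

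The levels of some members may depend on how reads were divided between a gene and its copies, which was not tested. In GENCODE M21, 616 annotated copies matched a member over at least 80% of the copy with at least 95% identity, and 445 of them had a mean above 0 TPM. At least 1 copy was found for 80 members, and for 15 members the copies together held at least 5% of the member's own TPM. The median over members with a copy and a level above 0 TPM was 1.23%. The copies of Rpl26 held 537.5% of the TPM of Rpl26, those of Rpl29 378%, those of Rpl35a 368%, those of Rps2 212% and those of Rpl30 211.6%. The 3 lowest core genes, Rpl35a, Rpl29 and Rpl26, were thus the 3 whose copies held the largest TPM relative to the gene.

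For Rpl26, a protein at the tunnel exit that also binds p53 mRNA, 1 processed pseudogene, Gm15772 (chr5:3236431-3236868, plus strand), was listed at 2019 to 2256 TPM, against 374 to 437 TPM for Rpl26. Over the coding sequence of 435 bases they differ at 2 positions. With its copies added, Rpl26 stood at 2521, 2519.97, 2409 and 2479 TPM in control and 2686, 2642, 2556 and 2646 TPM in ELF-WMF dishes, which did not overlap, while Rpl26 alone did (log2 fold change 0.09, SE 0.05, limma adjusted p = 0.394). For Rps2, the pseudogene Rps2-ps13 (chrX:52898588-52899469, plus strand) was listed at 3741 to 4144 TPM, above Rps2 itself in all dishes, and differs from the Rps2 coding sequence at 7 of 879 positions.

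For Rpl29, 2 processed pseudogenes, Gm8210 (chr1:43189156-43189638, plus strand) and Gm13841 (chr5:115801677-115802159, minus strand), are identical over 483 bases. Gm8210 was listed at 712, 118.7, 222 and 898 TPM in control and 1288, 1059, 636 and 268 TPM in ELF-WMF dishes. Gm13841 was listed at 478, 1100.03, 1010.1 and 349 TPM in control and 61.1, 286, 636 and 938 TPM in ELF-WMF dishes. Both were listed at 636 TPM in ELF-WMF dish 3, and in each other dish one stood above the other. They varied 10.9-fold and 18-fold between dishes, while their sum varied 1.13-fold, from 1189 to 1349 TPM. Rpl29 alone (322 ± 11.8 against 349 ± 7.65 TPM, n = 4) did not overlap between groups (log2 fold change 0.12, SE 0.03, limma adjusted p = 0.14), and with its copies it did (0.09).

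For Rpl35a, the deposited values of 5 processed pseudogenes that are identical over 333 bases were divided unevenly. Gm10243 (chr6:48523518-48523850, plus strand) was listed at 530.5, 1079, 7.36 and 20.2 TPM in control and 1.97, 31.8, 971 and 14.8 TPM in ELF-WMF dishes, a 548-fold range. The other 4, Rpl35a-ps2, Rpl35a-ps3, Rpl35a-ps4 and Rpl35a-ps6, had the same value as each other in every dish, from 2.82 to 272 TPM. The sum of the 5 varied 1.18-fold, from 928 to 1090.2 TPM. Over the Rpl35a coding sequence of 330 bases, Gm10243 differs at 1 position, and bases 96 to 216 of both are shown from GENCODE M21 (GRCm38) with that base in capitals.
Rpl35a: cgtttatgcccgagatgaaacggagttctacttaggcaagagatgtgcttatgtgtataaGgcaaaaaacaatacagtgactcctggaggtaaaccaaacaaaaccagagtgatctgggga
Gm10243: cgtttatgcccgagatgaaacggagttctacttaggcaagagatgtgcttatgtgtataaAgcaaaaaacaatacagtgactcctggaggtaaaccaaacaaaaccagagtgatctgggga

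The values of these pseudogenes in single dishes therefore cannot be read as separate levels. The genes they copy varied less, 1.18-fold for Rpl29 and 1.06-fold for Rpl35a over the 8 dishes. With all copies added, the sums varied 1.12-fold and 1.13-fold. How reads were divided between a gene and its copies was not tested. For Rpl35a the log2 fold change was -0.04 alone and -0.01 with its copies. With copies added, 72 of the 83 members then tested had a higher mean (86.7%, against 63.7% of all genes), and 14 did not overlap on the higher side. No share of all genes stands beside that count of 14.

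**Figure D5:**
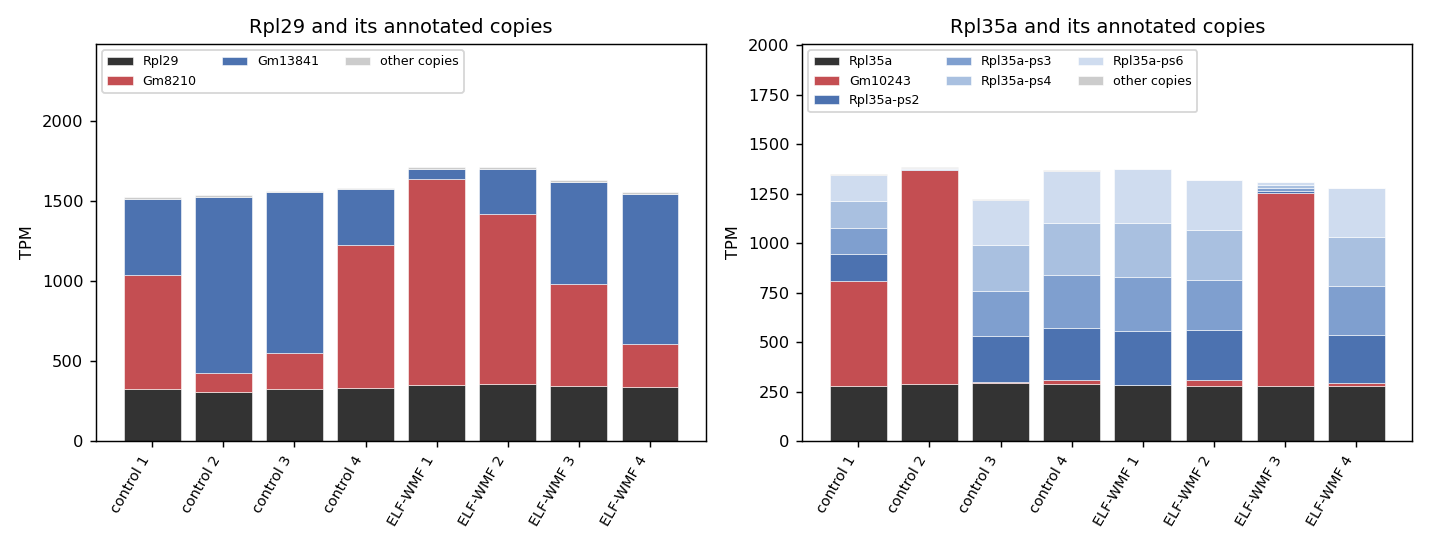
TPM of Rpl29 (left) and Rpl35a (right) with their annotated copies, stacked per dish. The coloured parts within a bar change from dish to dish, up to 1288 TPM for Gm8210 and 1079 TPM for Gm10243, while the gene itself (black) and the height of the whole bar change little.

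The 6 members annotated as pseudogenes, apart from the paralog Rps4l, were low. Rpl37rt had 52.5 to 82.1 TPM, Rps3a2 6.78 to 11.5 TPM, Rpl6l 3.24 to 5.19 TPM, Rps3a3 1.71 to 3.20 TPM, and Rpl32l 0.55 to 1.69 TPM. None of the 5 that were tested had an unadjusted p below 0.05, and all overlapped between groups.

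Both core genes described outside the symbol rule had higher means. Rack1, a scaffold on the head of the small subunit, was listed at 1271, 1309, 1291 and 1295 TPM in control and 1401, 1424, 1343 and 1347 TPM in ELF-WMF dishes, without overlap (log2 fold change 0.09, SE 0.03, limma adjusted p = 0.142). Fau, made as a fusion with a ubiquitin-like protein, had a log2 fold change of 0.07 (SE 0.03, limma adjusted p = 0.238), with overlap.

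Other genes with TOP mRNAs, which encode mainly translation factors, had higher means in 15 of 15 cases (63.7% of all tested genes), with a median log2 fold change of 0.07. None had an adjusted p below 0.05 (limma with Benjamini-Hochberg adjustment), 10 were higher at an unadjusted p below 0.05 (12% of all tested genes), and 7 were higher without overlap (8.01%). The 10 became 6 with median-of-ratios scaling, 5 with upper-quartile scaling and 6 without mitochondrial genes. Over all tested genes, those passing in either direction became 1492, 1389 and 1368, from 1894. The share of all genes with a higher mean became 52.8%, 47% and 49.1% in the same order. No share of all genes passing on the higher side alone stands beside these counts. Eef1b2, a nucleotide exchange factor for elongation factor 1A, had 1739.6, 1686, 1722 and 1712 TPM in control and 1936, 1876, 1843 and 1786 TPM in ELF-WMF dishes (0.12, SE 0.03, limma adjusted p = 0.122). Eef1a1, the elongation factor that delivers tRNA, lay at 9497 to 10113 TPM in control and 10399.9 to 10878 TPM in ELF-WMF dishes (0.11, SE 0.03, limma adjusted p = 0.134).

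Of 9 genes of mTORC1, LARP1 and MYC, 6 had a higher mean (66.7%), near the 63.7% of all tested genes. Myc, a transcription factor that drives ribosome biogenesis, was listed at 89.8, 92.0, 86.1 and 92.1 TPM in control and 100.1, 99.3, 96.4 and 101 TPM in ELF-WMF dishes. All ELF-WMF dishes lay above all control dishes (log2 fold change 0.14, SE 0.03, limma adjusted p = 0.122). Larp1 had a log2 fold change of 0.08 (SE 0.03, limma adjusted p = 0.268) with overlap, and the kinase gene Mtor and its partner Rptor had -0.01 (SE 0.08) and 0.00 (SE 0.05), where the sign of both depended on the dishes included.

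The ribosomal proteins of mitochondria, encoded by 78 genes with symbols that begin with Mrpl or Mrps, were compared as the most similar set. A higher mean was seen in 62 of 78 (79.5%, against 63.7% of all tested genes), with a median log2 fold change of 0.06, and 9 did not overlap on the higher side (8.01% of all tested genes) and 0 on the lower (1.86%). None had an adjusted p below 0.05 (limma), 14 were higher and 1 was lower at an unadjusted p below 0.05 (12% and 3.65% of all tested genes), and the difference between this set and the cytosolic members was not tested.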

How the data were processed

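Poly(A) RNA of 8 AML12 samples, 4 per group by the labels and called dishes here, was sequenced with the TruSeq Stranded mRNA kit as 150-base paired reads. The submitters' processing notes name Trimmomatic 0.39, STAR 2.7.4a, RSEM 1.3.3 and mm10. The annotation is not given in the sources used here. The authors deposited TPM per gene and dish, which sum to the same total in every dish, so each value is relative to all others. Replicate numbers came from the titles, which do not state that each sample is a separate dish. No pair of samples shared more than 3.79% of values, so none is a copy of another. Repeat libraries of the same dish would also differ, so this cannot show separate dishes. All were counted as separate.

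Genes with TPM of at least 1 in at least 4 dishes were tested as log2(TPM + 1) by limma 3.58.1 with an intensity trend (R 4.3.3), with Benjamini-Hochberg adjustment over 12122 genes. The pseudocount understates changes of low genes. The script was tested on simulated data with changes far larger than those of the members. That test does not show how well differences as small as theirs are found. Copies were found with BLAST 2.17.0 against GENCODE M21, and promoter windows came from RefSeq. The members and lists were chosen with earlier results of these data known. Named were the 5 members with the smallest p in each direction, the 5 highest, the paralogs with their core partners, Rps19bp1, the stalk and 5S proteins, Rps6, Rps27a, the 3 with the largest copies, the core genes outside the symbol rule, and 2 genes in each direction of the TOP and mTORC1 lists. Some genes that the rule names are not reported here, in text or figures. Genes shown for a sequence, an abundance rank or non-overlap were named after their values were seen, and the 6 members annotated as pseudogenes, other than the listed paralog Rps4l, were set apart after the annotation was seen. Alternatives were other pseudocounts, filters and scalings, copies added, paralogs removed, a length and GC correction, a replicate block and each dish left out. The set of core genes alone was added after the data were seen.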

Additional observations from a re-analysis of the deposited data

Results flagged for a closer look

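Dixon's criterion was applied within sets of 4 same-group dishes. Of 110 such sets, 7 held a value whose gap to its neighbour filled more of the range than the 95% limit. Chance gives about 1 in 20, or 5.5. The 110 sets did not cover all 94 members, so this count does not describe the members as a whole. Values that stand as far apart but are not listed include Rpl12 in control dish 2 (1765 TPM, other control dishes 1579 to 1596 TPM) and Rps12l1 in ELF-WMF dish 1. Rpl7a stood at 2028 TPM in control dish 4, above 1932 to 1945 TPM in the other control dishes. Rpl29 stood at 304 TPM in control dish 2, below 326 to 329 TPM, and Rpl7l1 at 119.5 TPM in control dish 1, above 107 to 109 TPM. In ELF-WMF dish 1, Rpl41 stood at 3594 TPM (others 3315 to 3338 TPM) and Rpl22l1 at 308.7 TPM (others 279.9 to 284 TPM). In the same dish Rpl3l (0.06 TPM) and Rps4l (0.17 TPM) were above 0 while the other ELF-WMF dishes were listed at 0.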

How the results depend on the processing

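No alternative gave a member with an adjusted p below 0.05. Without read counts, precision at low levels is unknown, and the dishes of a single batch do not show how batches of cells vary. At an unadjusted p below 0.05, 27 members were higher, against 8 with median-of-ratios scaling, 7 with upper-quartile scaling, 13 without mitochondrial genes, 17 without the intensity trend and 13 with the length and GC correction, and 16 to 29 with each dish left out. Over all tested genes, 1894 passed that threshold in either direction in the main fit. In the same order this became 1492, 1389, 1368, 1723 and 1768, and 1496 to 1963 with each dish left out. The 2 lower members became 4 with upper-quartile scaling, 4 without mitochondrial genes, and 0 without the paralogs or with core genes alone. Over all tested genes, the share with a higher mean was 63.7% in the main fit. It became 47% with upper-quartile scaling and 49.1% without mitochondrial genes. Non-overlap on the higher side (18) became 7, 6 and 7 under the scalings and 8 with the length and GC correction, and on the lower side (2) 1 with that correction and 0 without paralogs or with core genes alone. Outside the main fit, no share of all genes stands beside these counts of non-overlap. The median of 0.05 became 0.015 with upper-quartile scaling, with 0.034 to 0.065 over dishes left out. Over all tested genes the median of 0.0263 became -0.0053 with that scaling, with 0.0156 to 0.0368 over dishes left out. The TOP genes higher at an unadjusted p below 0.05 (10) became 6, 5 and 6 under the scalings and 6 without the trend. For counts of higher or lower genes alone, no share of all genes stands beside them outside the main fit. Dropping paralogs removes Rps27l and Rpl22l1 by construction. For all remaining shifts the cause was not tested.

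Of 44 named genes tested, 37 kept their direction in every alternative. With upper-quartile scaling Rplp1 (-0.004), Rps24 (-0.0088), Rpl22 (-0.0108) and Rps27a (-0.0021) changed sign, without mitochondrial genes Rplp1 (-0.0001), Rps24 (-0.0049) and Rpl22 (-0.0069), and with the length and GC correction, with or without the block, Rps24 (-0.0014) and Rpl22 (-0.002). With each dish left out in turn, values on both sides of 0 were reached by Rpl22 (-0.0035 to 0.0491), Rpl39 (-0.0478 to 0.0123), Mtor (-0.0529 to 0.0565) and Rptor (-0.0414 to 0.0418).

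Same-numbered dishes did not deviate together (correlations from -0.0419 to 0.0258, and 0 of 8 dishes closest to its own number), and the main fit used no pairing. Dishes handled in pairs with little effect on the levels would look the same, so pairing is not excluded. With the replicate block 26 members were higher and 2 lower at an unadjusted p below 0.05, and 14 were higher when that block was combined with the correction for length and GC. Over all tested genes, 1889 and 1714 passed that threshold in either direction in these fits.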
